A study of Mus musculus with 8 samples.

Results

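The matrix metalloproteases (Mmp genes), the ADAMTS proteases (a disintegrin and metalloprotease with thrombospondin repeats) and the tissue inhibitors of metalloproteases (Timp genes) were followed through 7 chromatin profiles of mouse bone marrow stroma. Members were the autosomal protein-coding RefSeq genes whose whole symbol is Mmp, Adamts or Timp followed by a number, with an optional a or b for Mmp. The rule found 45 of 20665 autosomal protein-coding genes: 23 Mmp, 19 Adamts and 3 Timp genes on 16 chromosomes. Of these, 10 Mmp genes stand in a row on chromosome 9 and are described apart from the other 35.

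The study profiled mesenchymal stem and progenitor cells (MSPCs) from the bone marrow of C57BL/6 mice, either wild type or Asxl1-/-, at passages 5 to 10 in MesenCult medium. Chromatin immunoprecipitation sequencing measured 3 histone marks, H3K4me2, H3K4me3 and H3K27me3, in both genotypes, and the ASXL1 protein in wild type alone. There was 1 library per target and genotype, so no difference between genotypes can be set against a spread between replicates and no test was made. The labels give no animal, sex or age and do not say how many cultures went into a library. The input library was not analysed here.

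These proteases cut the proteins of the extracellular matrix. Mmp enzymes are made as inactive proforms and cleave collagens, gelatin, fibronectin and proteoglycans; ADAMTS enzymes cleave proteoglycans such as aggrecan and versican, or trim procollagen. TIMP proteins bind the active site of Mmp enzymes, and Timp3 also blocks several ADAMTS enzymes. In bone marrow stroma they take part in matrix turnover, in bone formation and in the release of blood progenitors from their niche. ASXL1 is a chromatin regulator that activates the BAP1 deubiquitinase and has been linked to Polycomb and to H3K4 methylation. H3K4me3 is a mark of active or poised promoters, H3K4me2 of promoters and enhancers, and H3K27me3 of Polycomb repression; a promoter with both H3K4me3 and H3K27me3 is often called bivalent.

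The deposited lists hold islands, which are stretches of enriched 200 bp windows joined by the SICER caller, and give only their positions. A gene counted as marked when an island came within 1000 bp of its first or last base. The low end is the one with the smaller coordinate. A mark was called kept where both genotypes had such an island, lost where wild type alone had it, and gained where Asxl1-/- alone had it. Coordinates are mm10, and gene positions are those of RefSeq for GRCm38.p6, which shares them. Intervals on shares are 95% exact Clopper-Pearson intervals and cover counting error only.

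The lists held 15276 to 36048 islands. The 14792 to 35291 on the autosomes covered 66.883 to 217.228 Mb. Read depth is unknown because the lists give no counts. Covered length in Asxl1-/- divided by that in wild type was 0.927 for H3K4me2, 1.06 for H3K4me3 and 1.02 for H3K27me3 over the autosomes. It differed between chromosomes: for H3K4me3 it ran from 0.7 on chromosome 3 to 1.45 on chromosome 10, and for H3K27me3 from 0.222 to 2.09 on the same pair. Mesenchymal stromal markers carried H3K4me3 in 11 of 12 genes in both genotypes, with Lepr the exception. Of 8 haematopoietic markers 1 carried it (Spi1), and of 5 endothelial markers 1 (Kdr); Ptprc, Itgam, Pecam1 and Cdh5 did not.

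The promoter letters of the members fell into 2 kinds, and examples are printed because the islands described below largely followed the same division. RefSeq promoter windows (250 bases before the start site to 50 after it, GRCm38.p6) were matched for 31 of the 45 members, including all 10 genes of the chromosome 9 cluster. The 250 bases before the start are shown 5′ to 3′ in the direction of transcription. Capitals mark CG dinucleotides, the TATA letters TATAAA and the AP-1 letters TGAGTCA or TGACTCA, each on either strand. AP-1 is the Fos and Jun transcription factor. The first 2 genes belong to the cluster and had no island in any list: the collagenase Mmp13 (chr9:7272264-7272513, plus strand) and the stromelysin Mmp3 (chr9:7445572-7445821, plus strand).
Mmp13: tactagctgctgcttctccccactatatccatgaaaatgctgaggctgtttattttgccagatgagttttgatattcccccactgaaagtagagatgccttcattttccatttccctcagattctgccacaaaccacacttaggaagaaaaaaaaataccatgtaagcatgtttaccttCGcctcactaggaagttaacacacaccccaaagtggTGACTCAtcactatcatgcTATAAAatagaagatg
Mmp3: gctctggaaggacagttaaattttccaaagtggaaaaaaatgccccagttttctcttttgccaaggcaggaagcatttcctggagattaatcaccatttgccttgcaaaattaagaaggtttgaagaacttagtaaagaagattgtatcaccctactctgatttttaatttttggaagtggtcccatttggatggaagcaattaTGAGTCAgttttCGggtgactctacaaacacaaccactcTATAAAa
The next pair also belongs to the cluster but lay under a single wide ASXL1 island: the neutrophil collagenase Mmp8 (chr9:7558179-7558428, plus strand) and Mmp27 (chr9:7571146-7571395, plus strand).
Mmp8: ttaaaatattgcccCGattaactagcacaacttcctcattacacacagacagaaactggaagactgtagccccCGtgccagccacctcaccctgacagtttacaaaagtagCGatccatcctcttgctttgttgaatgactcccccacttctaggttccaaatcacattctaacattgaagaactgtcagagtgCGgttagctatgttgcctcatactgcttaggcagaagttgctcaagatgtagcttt
Mmp27: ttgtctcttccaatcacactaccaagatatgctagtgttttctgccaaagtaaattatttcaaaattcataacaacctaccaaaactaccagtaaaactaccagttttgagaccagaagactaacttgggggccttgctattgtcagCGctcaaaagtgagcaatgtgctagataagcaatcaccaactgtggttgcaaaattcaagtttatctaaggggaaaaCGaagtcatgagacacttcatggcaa
The inhibitor Timp3 (chr10:86300162-86300411, plus strand) and the procollagen N-proteinase Adamts2 (chr11:50601835-50602084, plus strand) carried H3K4me3 and ASXL1 at their starts. The inhibitor Timp4 (chr6:115252206-115252455, minus strand) was bare in wild type and had H3K27me3 in Asxl1-/-.
Timp3: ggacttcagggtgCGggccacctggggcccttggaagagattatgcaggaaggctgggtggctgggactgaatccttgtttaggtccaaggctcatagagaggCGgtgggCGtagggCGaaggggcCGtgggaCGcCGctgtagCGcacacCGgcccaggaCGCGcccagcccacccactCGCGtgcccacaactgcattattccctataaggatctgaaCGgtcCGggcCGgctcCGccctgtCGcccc
Adamts2: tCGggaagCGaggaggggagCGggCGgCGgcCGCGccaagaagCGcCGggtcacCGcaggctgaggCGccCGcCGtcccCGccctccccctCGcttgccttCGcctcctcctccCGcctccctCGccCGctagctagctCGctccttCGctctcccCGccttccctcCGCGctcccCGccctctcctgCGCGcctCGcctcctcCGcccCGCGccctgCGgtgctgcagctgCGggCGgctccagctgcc
Timp4: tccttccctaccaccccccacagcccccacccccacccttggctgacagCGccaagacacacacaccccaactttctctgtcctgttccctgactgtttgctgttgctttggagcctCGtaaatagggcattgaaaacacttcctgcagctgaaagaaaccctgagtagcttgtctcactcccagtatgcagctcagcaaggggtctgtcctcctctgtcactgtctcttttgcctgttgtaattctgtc

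Over the whole 300-base window, the 10 cluster promoters held a median of 1 CG dinucleotide (range 0 to 4). The 21 matched members outside the cluster held a median of 20 (range 2 to 44), and all 16457 promoters in the table a median of 14. The TATAAA letters, searched on both strands, were in 8 of the 10 cluster promoters, in 2 of the 21 others (Adamts1 and Mmp21) and in 13.5% of all promoters. The AP-1 letters TGAGTCA and TGACTCA, which are each other's reverse complement, were in 6 of 10 cluster promoters, in 0 of the 21 others and in 4.59% of all promoters. The 6 were Mmp13, Mmp3, Mmp10, Mmp7, Mmp1a and Mmp1b, where the letters began 35, 46, 63, 63, 73 and 93 bases before the start. The ETS letters AGGAAG, also on both strands, were in 7 of 10 and in 7 of 21, against 33.7% of all promoters. Such matches describe the letters only and do not show that a factor binds there.

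**Figure D1:**
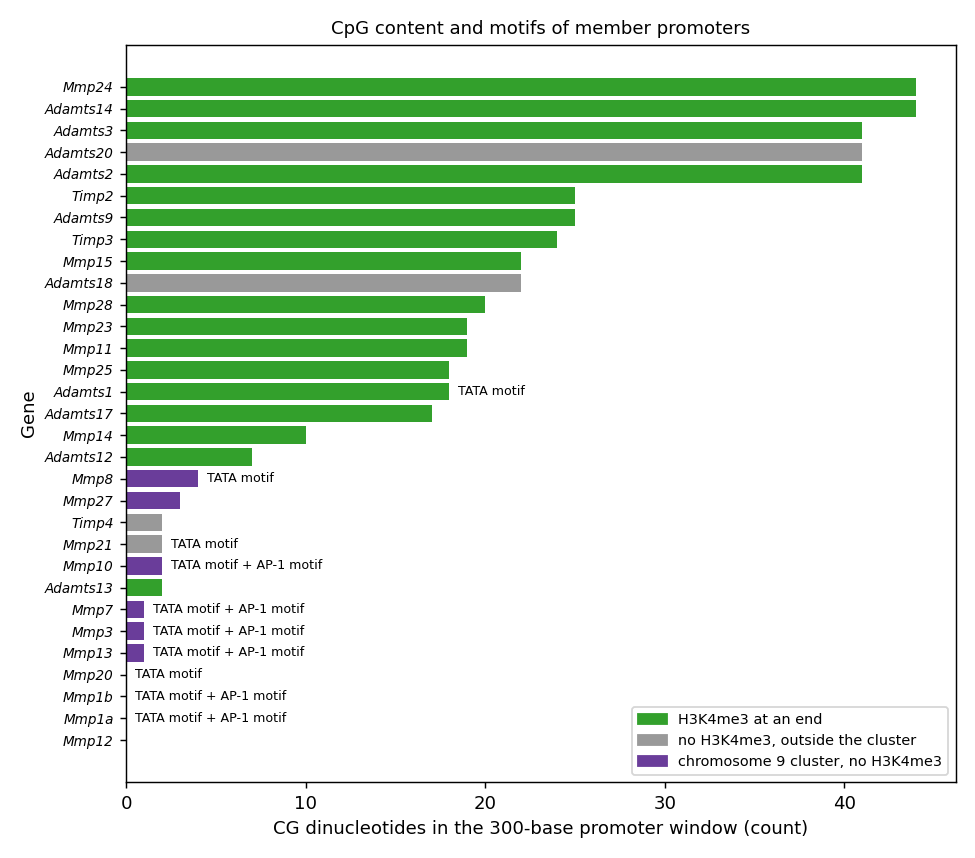
Number of CG dinucleotides (horizontal axis, count) in the 300-base promoter window of the 31 matched members (vertical axis), with the members whose window holds the TATA or AP-1 letters labelled. Genes of the chromosome 9 cluster (purple) hold 0 to 4, while most members with H3K4me3 at an end (green) hold far more.

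Promoter letters and H3K4me3 went together among the matched members as a whole, with the cluster genes included. The 17 with H3K4me3 at an end in wild type had a median of 20 CG dinucleotides, 1 held TATAAA (Adamts1) and 0 held the AP-1 letters. The 14 without it had a median of 1.5, with TATAAA in 9 and the AP-1 letters in 6. Of these 14, 10 are the neighbouring cluster genes, which hold 8 of the TATAAA matches and all 6 of the AP-1 matches. The others are Adamts18, Adamts20, Mmp21 and Timp4, with 22, 41, 2 and 2 CG dinucleotides, and of them only Mmp21 holds TATAAA. Across the genome, promoters with and without the mark had medians of 21 and 3. TATAAA was in 6.78% and 23.7% of these, and the AP-1 letters in 3.21% and 6.67%. The exceptions were Adamts13, with H3K4me3 and 2 CG dinucleotides, and Adamts18 and Adamts20, with 22 and 41 but no H3K4me3 at an end. In Adamts13, the protease that cleaves von Willebrand factor, the H3K4me3 island lay at the far end of the gene, within 2000 bp of an end of another gene. Its start lay under a 32.0 kb H3K27me3 island in wild type and a 29.8 kb one in Asxl1-/-. The RefSeq start of Adamts20 lies inside the annotated gene, so the rule on gene ends missed it. That start had H3K27me3 of 9.0 kb in wild type against 5.2 kb in Asxl1-/-, and a 0.6 kb H3K4me3 island near it was in the wild-type list only.

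In wild type, ASXL1 was at an end of 24 of the 45 members (53.3%, interval 37.9 to 68.3), against 51.4% of all genes. H3K4me2 was at 31 (68.9%, against 64.7%), H3K4me3 at 28 (62.2%, against 59.8%) and H3K27me3 at 17 (37.8%, interval 23.8 to 53.5, against 27.4%). In Asxl1-/-, H3K4me2 was at 28 members (62.2%, against 65.7%), H3K4me3 at 28 (against 59.6%) and H3K27me3 at 15 (33.3%, against 24.4%). In each list the share over all genes lay within the counting interval of the members' share. An island of at least 1 of the 7 lists lay over or beside 37 members (82.2%, against 81.1%). Islands reached into the body of 26 members for ASXL1 (against 54.7% of all genes), of 34 and 31 for H3K4me2 in wild type and Asxl1-/- (against 69% and 69.7%), of 30 and 28 for H3K4me3 (against 63.3% and 62.5%), and of 19 and 15 for H3K27me3 (against 28.4% and 25.2%). Of the 45 members, 12 have a second protein-coding gene that begins or ends within 2000 bp, where an island cannot be given to either gene.

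**Figure D2:**
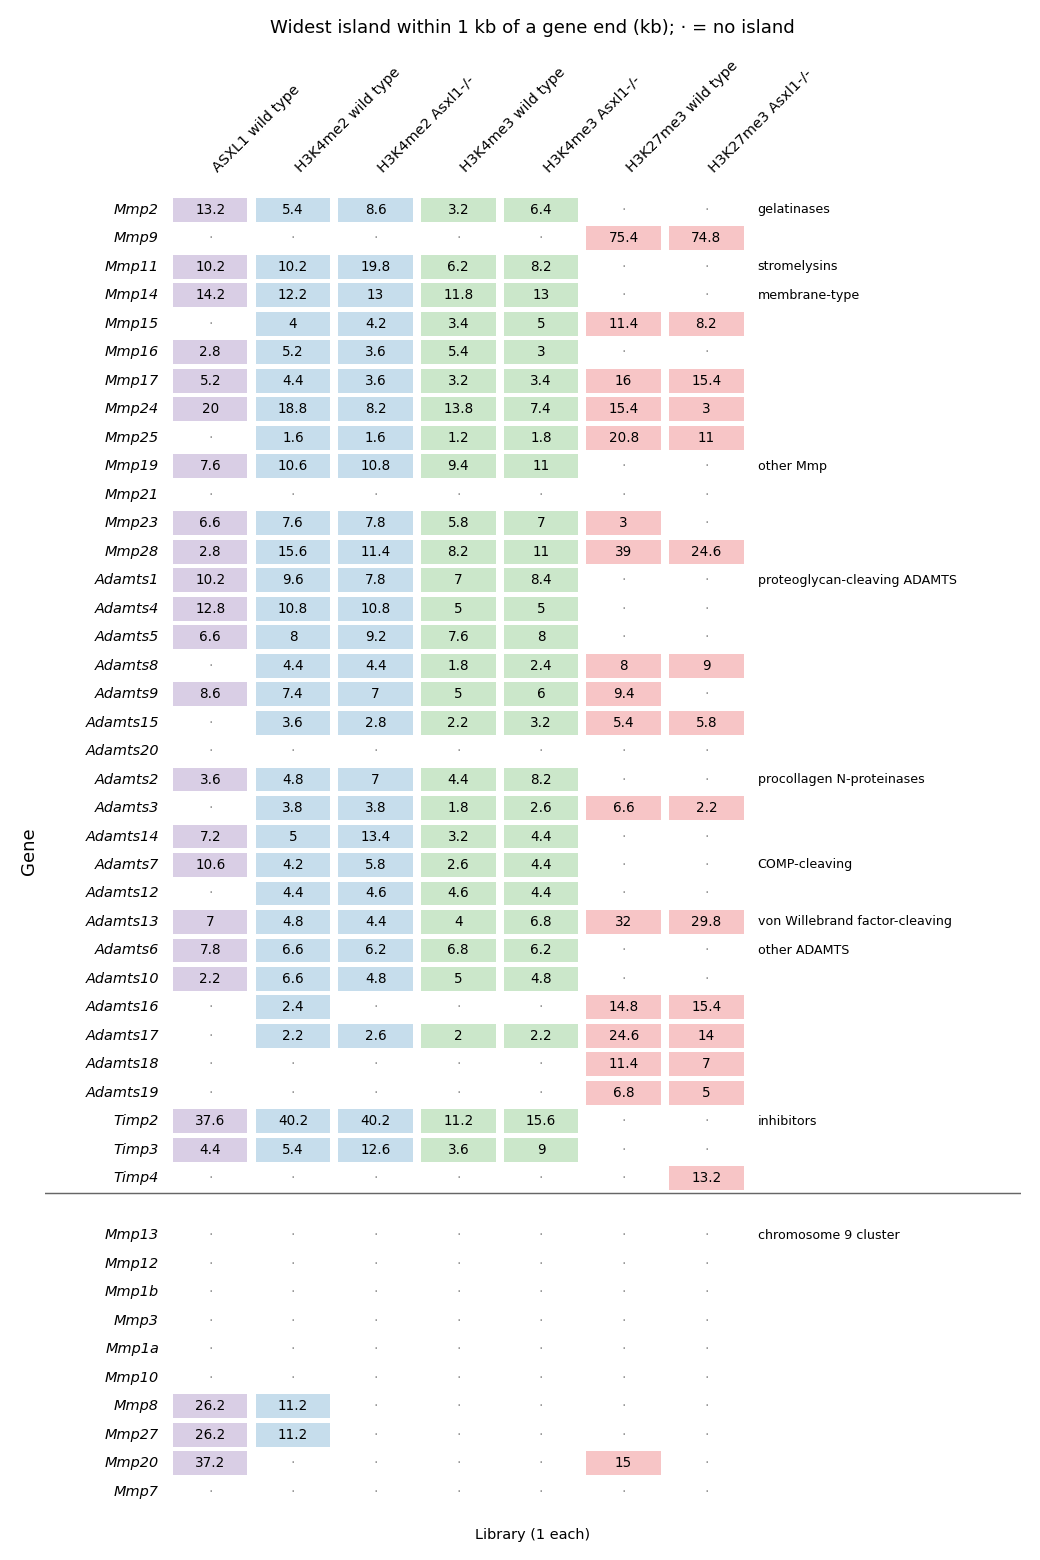
Width in kb of the widest island within 1000 bp of an end of each of the 45 members (rows, by role, with the chromosome 9 cluster at the bottom) in each of the 7 libraries (columns); a dot stands for no island. H3K4me3 fills the same 28 rows in both genotypes, while the cluster rows hold islands only at Mmp8, Mmp27 and Mmp20, in wild type.

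H3K4me3 was at the same 28 members in both genotypes. None of the 45 lost it (0 of 45, interval 0 to 7.87%), against 2.51% of all genes, and none gained it, against 2.26%; the 28 kept were 62.2% of the members, against 57.3%. The 28 comprised all 6 membrane-type Mmp genes, which anchor proteolysis at the cell surface; the gelatinase Mmp2; the stromelysin Mmp11; and Mmp19, Mmp23 and Mmp28. They also comprised 6 of 7 proteoglycan-cleaving ADAMTS genes, all 3 procollagen N-proteinases (Adamts2, Adamts3 and Adamts14), both proteases that cleave cartilage oligomeric matrix protein (Adamts7 and Adamts12), Adamts13, 3 of the 6 remaining ADAMTS genes and the inhibitors Timp2 and Timp3. The membrane-type and procollagen groups carried H3K4me2 throughout in both genotypes as well.

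Islands of H3K4me3 covered more of the kept members in Asxl1-/-. Over each gene and 1000 bp around it, the covered length was longer in Asxl1-/- at 21 of the 28, shorter at 3 (Mmp16, Adamts6 and Adamts12; 10.7%, against 35.5% of all kept genes) and equal at 4 (Adamts1, Adamts5, Adamts10 and Adamts14). The share with a longer cover was 75% (interval 55.1 to 89.3), against 53.2% of all 11850 genes that kept the mark. The median ratio of Asxl1-/- to wild type was 1.36 over the members and 1.04 over all kept genes. Since chromosomes differed, each ratio was also set against the median of kept genes on its own chromosome, a comparison added after the values had been seen. Of the 28 members 21 lay above it and 4 below, while 48.3% of all kept genes lay above. Without chromosome 10, where the mark covered 1.45 times as much in Asxl1-/-, the members' median was 1.34. H3K4me2 leaned the same way by less: at 20 of the 28 members that kept it the cover was longer in Asxl1-/- (71.4%, against 37.5% of all kept genes) and at 8 shorter (28.6%, against 51.7%), with median ratios of 1.09 and 0.973. Against their chromosome's median 20 lay above, against 49.3% of all kept genes. With 1 library per genotype, a longer cover cannot be told apart from a stronger or deeper library.

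**Figure D3:**
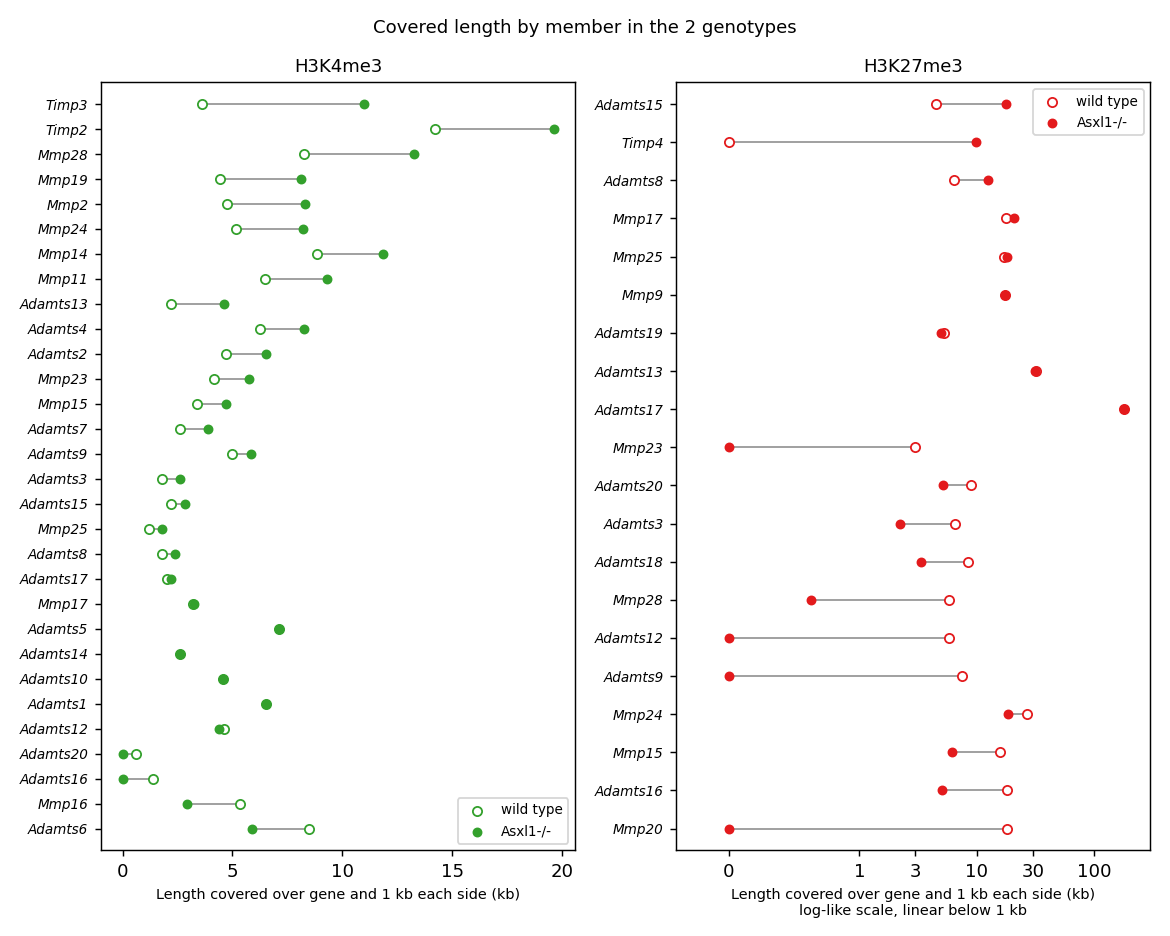
Length in kb covered by H3K4me3 (left, linear axis) and H3K27me3 (right, log-like axis that is linear below 1 kb) over each gene and 1000 bp on each side, in wild type (open circles) and Asxl1-/- (filled circles), 1 library each, for every member with any cover. Filled circles lie to the right for most members with H3K4me3, led by Timp3 (3.6 to 10.989 kb), and on both sides for H3K27me3, with Timp4 at 0 in wild type.

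The 3 inhibitors had unlike profiles. Timp2 (chr11:118301061-118355411), which inhibits Mmp2 and also helps to activate it, had the widest ASXL1 island at an end of any member. It measured 37.6 kb, with another of 21.6 kb inside the gene. Its H3K4me2 island was 40.2 kb in both genotypes, of which 40.0 kb coincided. Its H3K4me3 island at the high end, where the gene starts, was 11.2 kb in wild type against 15.6 kb in Asxl1-/-, and the wider one held the whole of the other. A further 2.2 kb H3K4me3 island inside Timp2 was in the Asxl1-/- list only.

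Timp3 (chr10:86300412-86349505), the inhibitor that stays bound to the matrix, had the largest ratio of H3K4me3 cover. The island at its start was 3.6 kb in wild type against 9.0 kb in Asxl1-/-, and a second one of 3.0 kb inside the gene appeared in Asxl1-/- only. The total was 3.6 against 10.989 kb, a ratio of 3.05, which ranked 20th among the 604 genes of chromosome 10 that kept the mark; the median there was 1.24. Its H3K4me2 cover went from 18.6 to 33.189 kb (ratio 1.78). ASXL1 islands of 4.4, 6.6 and 6.8 kb lay over the gene in wild type, and it had no H3K27me3. Besides Timp3, 1 other member had at least 2 times the H3K4me3 cover in Asxl1-/-, Adamts13 (2.225 to 4.625 kb, ratio 2.08). In Adamts13 this cover lay at the end away from the start, with an end of another gene within 2000 bp. Timp3 and Adamts13 together made 7.14% of the kept members, against 4.24% of all kept genes.

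Timp4 (chr6:115244444-115252205) was the only member without a mark at its ends in wild type that had one in Asxl1-/-. It had no island of any kind in wild type. In Asxl1-/- an H3K27me3 island of 13.2 kb covered the whole gene (7.762 kb) and both ends. Gains of H3K27me3 made up 1 of 45 members, against 4.06% of all genes, and chromosome 6 as a whole covered 0.996 times as much in Asxl1-/-. At 2 members (4.44%, against 2.19%), Mmp25 and Adamts17, an end was added: both had H3K27me3 at an end in both genotypes, and at their other end in Asxl1-/- alone.

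The gelatinases, which digest denatured collagen and the collagen of basement membranes, were unlike each other. Mmp2 (chr8:92827290-92853421) carried ASXL1 islands of 3.6, 11.6 and 13.2 kb over 25.132 kb of the gene and its flanks. The H3K4me3 island at its low end was 3.0 kb in wild type against 6.4 kb in Asxl1-/-. That at its high end was 3.2 kb in wild type and lay beyond the gene (chr8:92854401-92857600), touching only the edge of the 1000 bp window. No Asxl1-/- island lay within 1000 bp of that end, although 2.2 kb of the 3.2 kb were still covered farther out. The H3K4me2 island of 5.4 kb there did lie over the gene end. It had no counterpart inside the window, and 2.2 kb of it were covered in Asxl1-/-, while the low-end H3K4me2 island went from 3.2 to 8.6 kb. By the 1000 bp rule, Mmp2 was the only member to lose either mark from 1 end and keep it at the other (2.22% of members, against 2.95% of all genes for H3K4me2 and 1.35% for H3K4me3). For H3K4me3 that call rests on the edge of the window. A neighbouring gene has an end within 2000 bp of this high end. Over the whole gene, H3K4me3 cover was 1.76 times that in wild type, on a chromosome at 0.938.

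Mmp9 (chr2:164940326-164955850) had neither ASXL1 nor H3K4me3 in any list. An H3K27me3 island of 75.4 kb in wild type against 74.8 kb in Asxl1-/- covered the whole gene, with 71.4 kb in common. It is the widest H3K27me3 island at an end of any member in either genotype. H3K4me2 islands inside the gene measured 3.6 and 1.4 kb in wild type against 3.4 kb in Asxl1-/-. In both genotypes, then, Mmp2 had H3K4me3 without H3K27me3 and Mmp9 had the reverse.

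Among the membrane-type genes, Mmp14, an activator of pro-Mmp2 and itself a collagenase, had ASXL1 islands of 14.2 and 6.8 kb. Its low-end H3K4me3 island was 11.8 kb in wild type against 13.0 kb in Asxl1-/-, and its total cover 8.859 against 11.859 kb. Another gene has an end within 2000 bp of the low end of Mmp14, where the 14.2 kb ASXL1 island also lay. Mmp24 (chr2:155775342-155818367) had a 20.0 kb ASXL1 island at its high end, where another gene has an end. The H3K4me3 island at that end was 13.8 kb in wild type against 7.4 kb in Asxl1-/-. Even so, 87% of the wild-type island was still covered in Asxl1-/-. Over Mmp24 and 1000 bp around it, H3K4me3 cover went from 5.167 to 8.226 kb (ratio 1.59). At its start H3K4me3 was a single 0.6 kb island in wild type, and a pair of 1.6 kb islands in Asxl1-/-. Over the same start H3K27me3 went from a single 15.4 kb island to islands of 3.0 and 2.8 kb. Mmp16 went the other way for H3K4me3, from 5.4 to 3.0 kb at its start, with a ratio of 0.55 over the gene, on a chromosome at 0.941.

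Among the procollagen N-proteinases, which trim the amino ends of fibrillar procollagens, Adamts2 (chr11:50602085-50807573) had 40.116 kb of ASXL1 over a gene of 205.489 kb. Its H3K4me3 island at the start was 4.4 kb in wild type against 8.2 kb in Asxl1-/-. Its H3K4me2 cover went from 38.516 to 74.916 kb (ratio 1.95), against 1.13 for chromosome 11. Adamts14 had an equal H3K4me3 cover of 2.619 kb in both genotypes. In Adamts3, H3K4me3 went from 1.8 to 2.6 kb and H3K27me3 from 6.468 to 2.2 kb.

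H3K4me2 was lost at 3 members, Mmp8, Mmp27 and Adamts16. These were 9.68% of the 31 marked in wild type (interval 2.04 to 25.8), against 2.98% over all genes, and 6.67% of the 45, against 1.93%. None gained it, against 2.99%, and 28 kept it (62.2%, against 62.8%). Mmp8 and Mmp27 shared 1 island, so the 3 losses are 2 islands. Adamts16 (chr13:70727798-70841845), whose substrates include fibronectin, lost a 2.4 kb island at its high end. The call depended on the window: within 2000 bp the islands near its low end, 7.8 kb in wild type against 7.4 kb in Asxl1-/-, also count and the mark is kept. Over the gene its H3K4me2 cover went from 20.4 to 11.0 kb, its H3K4me3 from 1.4 kb to none and its H3K27me3 from 18.045 to 5.045 kb. On chromosome 13 as a whole these marks covered 0.616, 0.793 and 0.491 times as much in Asxl1-/-. ASXL1 islands inside Adamts16, none of them at an end, added up to 34.6 kb.

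H3K27me3 was lost at 3 of the 17 members that had it (17.6%), against 25.8% over all genes: Adamts9, Mmp23 and Mmp20. Over all 45 this is 6.67%, against 7.08%; 14 kept it (31.1%, against 20.4%). Mmp15 lost it from 1 end and kept it at the other (2.22% of members, against 2.13%). Adamts9 (chr6:92772699-92944450), a versican- and aggrecan-cleaving protease, lost a 9.4 kb island at its start, of which 0 kb was covered in Asxl1-/-. Its H3K4me3 island there was 5.0 kb in wild type against 6.0 kb in Asxl1-/-. Mmp23 lost a 3.0 kb island, while its H3K4me3 went from 5.8 to 7.0 kb. Chromosome 4 covered 0.619 times as much H3K27me3. Each end of Mmp23 has an end of another gene within 2000 bp, so these islands, the lost one included, cannot be given to Mmp23 alone. Adamts9 and Mmp23 kept H3K4me3 and had ASXL1 over the lost island in wild type, at 6.8 kb of the span of Adamts9 and 3.0 kb of that of Mmp23.

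At the 14 members that kept H3K27me3, its cover was longer in Asxl1-/- at 4 (28.6%, against 37.3% of all kept genes), shorter at 9 (64.3%, against 44.3%) and equal at 1, Mmp9. Against the median of kept genes on the same chromosome 5 of 14 lay above (35.7%, against 44.4%). The median ratio was 0.974, against 1 over all kept genes. In 5 of the 14 the ratio was at most 0.5 (35.7%, interval 12.8 to 64.9), against 11.8% of all kept genes. These were Mmp28 (5.833 to 0.633 kb), Adamts16, Adamts3, Mmp15 (15.598 to 6.105 kb) and Adamts18 (8.343 to 3.343 kb). For Mmp28 this was the edge of an island at the end away from its start, 39.0 kb in wild type against 24.6 kb in Asxl1-/-. The island at the high end of Adamts16 was 14.8 kb against 15.4 kb. Its islands of 7.2 and 6.6 kb inside the gene were in wild type only. Mmp28 stands on chromosome 11, where the mark covered 1.5 times as much in Asxl1-/-, and the other 4 on chromosomes 13, 5 and 8, where it covered 0.491 to 0.826 times as much. The neighbours Adamts15 and Adamts8 on chromosome 9 went the other way, from 4.452 to 17.852 kb and from 6.439 to 12.439 kb, on a chromosome at 1.53. Adamts15 alone had at least 2 times the cover (7.14% of 14, against 11.2%). Adamts17 had the longest cover, 179.302 kb in wild type against 178.273 kb in Asxl1-/-.

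H3K4me3 and H3K27me3 were at the same end of 12 members in wild type (26.7%, interval 14.6 to 41.9), against 12.4% of all genes. They were Mmp15, Mmp17, Mmp23, Mmp24, Mmp25, Mmp28, Adamts3, Adamts8, Adamts9, Adamts13, Adamts15 and Adamts17. In Asxl1-/- there were 10 (22.2%, against 9.71%), the same without Adamts9 and Mmp23. These ends are not all promoters. In Mmp28 and Adamts13 both marks met only at the end away from the start, with an end of another gene within 2000 bp. H3K27me3 without H3K4me3 was at 5 members in each genotype (11.1%, against 13.2% in both). Adamts16, Adamts18, Adamts19 and Mmp9 were among the 5 both times, and Mmp20 in wild type gave way to Timp4 in Asxl1-/-. H3K4me2 without H3K4me3 was at 3 members in wild type (6.67%, against 5.12%), the same 3 that lost it, and at 0 in Asxl1-/- (against 6.54%). None of the 3 marks was at an end of 10 members in wild type (22.2%, against 24.8%) and of 12 in Asxl1-/- (26.7%, against 25%).

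As over all genes, ASXL1 was most frequent at members with H3K4me3 and no H3K27me3. Of the 28 members with H3K4me3 in wild type 21 had ASXL1 at an end (75%, against 83.1% of all such genes). Of the 16 with H3K4me3 and no H3K27me3 at an end, 15 had it (93.8%, against 92.5%). The exception was Adamts12, with a 4.2 kb ASXL1 island inside the gene. Of the 12 with both marks at the same end, 6 had it (50%, against 48.4%): Adamts9, Adamts13, Mmp17, Mmp23, Mmp24 and Mmp28. ASXL1 was counted at either end here. In Mmp24 and Mmp28 it lay at the high end, while both marks met only at the low end. Of the 17 without H3K4me3, 3 had ASXL1 (17.6%, against 4.04%), and these were Mmp8, Mmp27 and Mmp20 of the chromosome 9 cluster. Outside the cluster, 73.4% of the 282.651 kb of ASXL1 at members was also covered by wild-type H3K4me2, 37.7% by H3K4me3 and 8.15% by H3K27me3. Over all genes these shares were 81.1%, 57.8% and 5.06%.

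The chromosome 9 cluster (chr9:7272514-7699585) spans 427.072 kb and holds Mmp13, Mmp12, Mmp1b, Mmp3, Mmp1a, Mmp10, Mmp8, Mmp27, Mmp20 and Mmp7 in that order. It was split into a bare stretch and a stretch with wild-type islands. The first 6 genes, from Mmp13 to Mmp10, cover 237.729 kb and had 0 islands in all 7 lists. They include Mmp13, Mmp1a and Mmp1b, grouped here with the collagenases by family, the stromelysins Mmp3 and Mmp10, and the macrophage elastase Mmp12. Mmp7, the matrilysin at the other end, also had no island at its ends or over its body.

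The stretch from Mmp8 to Mmp7, 141.157 kb long, was covered over 72.572 kb (51.4%) by ASXL1 in wild type. H3K4me2 covered 23.0 kb (16.3%), H3K27me3 30.4 kb (21.5%) and H3K4me3 5.8 kb, the last between genes. In Asxl1-/- all 3 marks covered 0 kb of it. A 26.2 kb ASXL1 island (chr9:7557201-7583400) held both Mmp8 and Mmp27, and a 37.2 kb one (chr9:7647801-7685000) lay over the high end of Mmp20, the enamel protease enamelysin. The H3K4me2 island shared by Mmp8 and Mmp27 (chr9:7564801-7576000) was 11.2 kb in wild type. It lay over the start of Mmp27 and the far end of Mmp8, and not over the start of Mmp8. Mmp20 had H3K27me3 islands of 15.0 kb at its start and 15.4 kb inside it, both in wild type only. At the cluster genes 23.3% of the ASXL1 length was also covered by H3K4me2, 0% by H3K4me3 and 22% by H3K27me3.

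**Figure D4:**
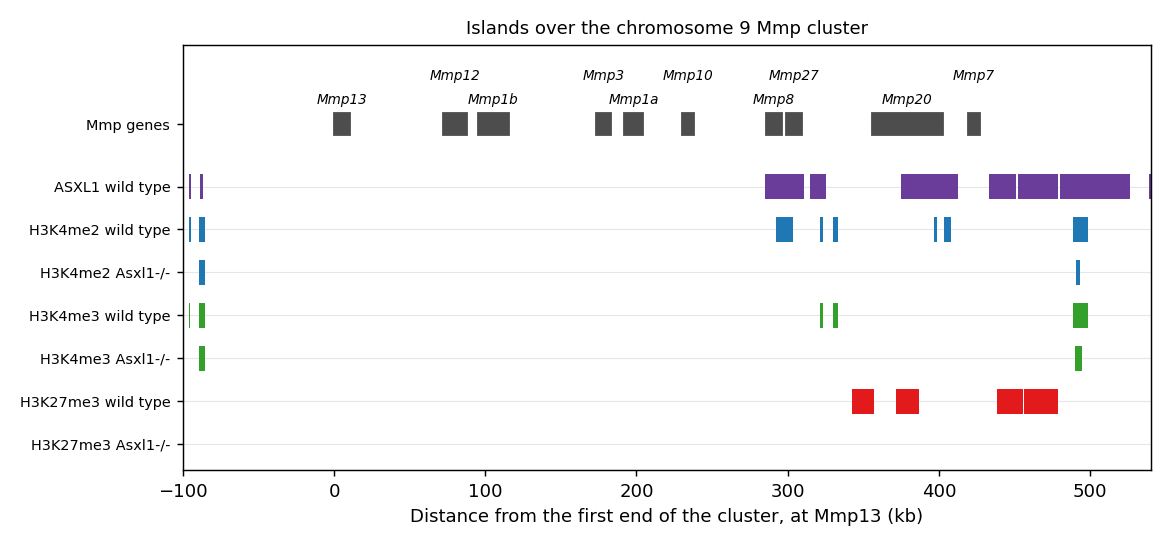
Islands of the 7 libraries (rows) over the chromosome 9 cluster, by distance in kb from its first end at Mmp13 (horizontal axis), with the 10 Mmp genes as grey boxes on top. The first 6 genes have no island, and the wild-type islands from Mmp8 onward have no counterpart in Asxl1-/- within the cluster.

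The wild-type islands at Mmp8, Mmp27 and Mmp20 belonged to a stretch of chromosome 9 that stood apart well beyond these genes. From 7.5 to 9.5 Mb ASXL1 covered 36.2% of the sequence, and from 6.0 to 7.5 Mb 0.347%; over the autosomes it covered 4.33%. In the bin from 7.5 to 8.0 Mb it covered 70.7%, the 2nd highest of 4910 autosomal bins of 500 kb. The widest island of the whole ASXL1 list, 215.8 kb, began 111.816 kb past Mmp7. Wild-type H3K4me2, H3K4me3 and H3K27me3 covered 10.2%, 4.81% and 6.18% of the same 2 Mb. In Asxl1-/- they covered 3.19%, 1.81% and 0.46%, which is 0.312, 0.376 and 0.0744 times as much. Chromosome 9 as a whole went the other way, at 1.17, 1.26 and 1.53. Whether the losses at Mmp8, Mmp27 and Mmp20 belong to these genes or to the whole stretch was not tested. The lists hold no input signal, so the number of DNA copies of this stretch in each culture was not measured. Without the 5 members in it (Mmp10, Mmp8, Mmp27, Mmp20 and Mmp7), 1 member lost H3K4me2 (Adamts16) and 2 lost H3K27me3 (Adamts9 and Mmp23).

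**Figure D5:**
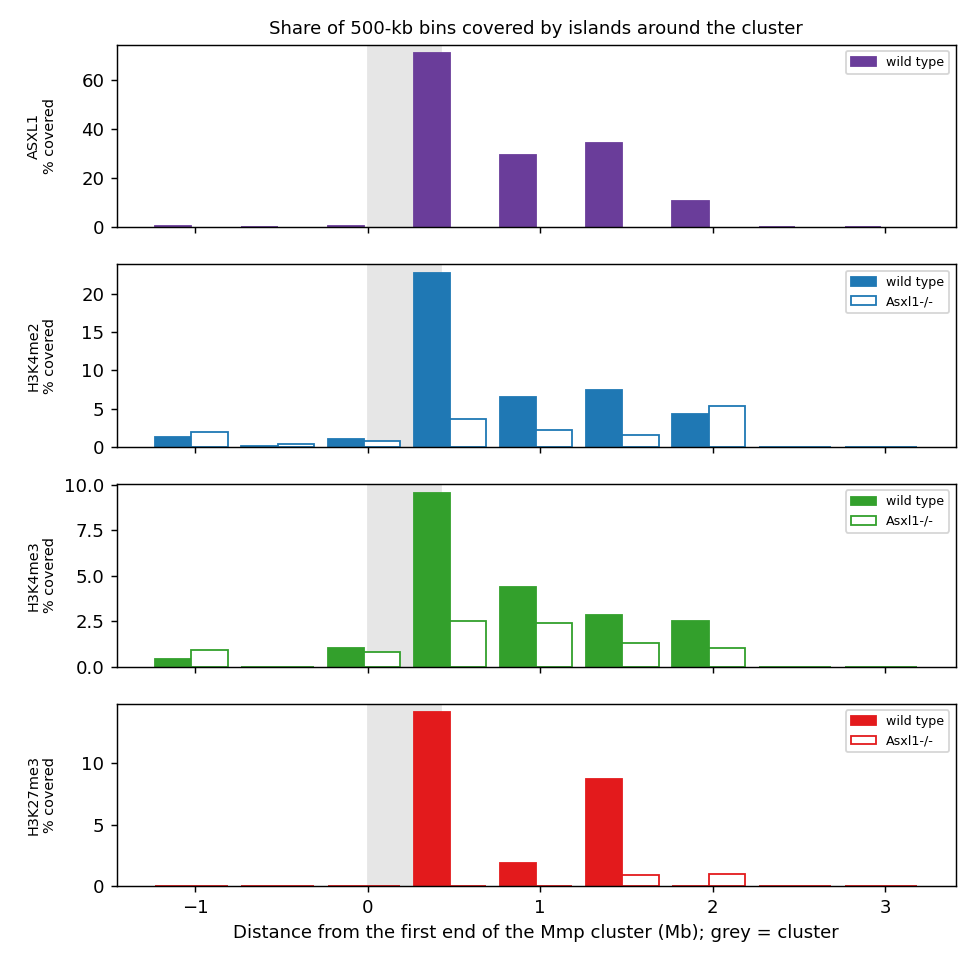
Share of each 500 kb bin covered by islands (vertical axes, percent, a separate scale per target) by distance in Mb from the first end of the Mmp cluster, in wild type (filled bars) and Asxl1-/- (open bars); the grey band is the cluster. Cover is near 0 before the bin that holds Mmp10 to Mmp7 and, in wild type, highest in that bin, at 70.7% for ASXL1.

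Genes that work with these proteases were read from a list of 47, of which 33 had ASXL1 at an end (70.2%, interval 55.1 to 82.7, against 51.4% of all genes). H3K4me3 was kept at 35 of them (74.5%, against 57.3%), lost at 3 (6.38%, interval 1.34 to 17.5, against 2.51%) and gained at 0 (against 2.26%). The 3 were the ADAMTS-like gene Adamtsl3 (a 3.8 kb island) and the matrix proteins Acan, or aggrecan (1.2 kb), and Comp (4.4 kb). Acan and Comp are among the 10 substrates listed, of which 8 had H3K4me3 in wild type and 6 kept it. Both had H3K27me3 and H3K4me2 at an end in both genotypes. H3K27me3 was kept at 9 (19.1%, against 20.4%), lost at 3 (6.38%, against 7.08%) and gained at 2 (4.26%, against 4.06%). It was lost at Reck (11.2 kb), a membrane-anchored Mmp inhibitor, at the protease inhibitor Serpine2 (8.0 kb) and at Adam12 (2.0 kb). It was gained at Papln (7.4 kb) and Adamtsl3 (9.4 kb). H3K4me2 was lost at 1, Adamtsl2 (3.0 kb; 2.13%, against 1.93%), and gained at 1, Ets1 (1.0 kb; 2.13%, against 2.99%). The list holds 11 genes for transcription factors, of the AP-1 and ETS families and the Runt-domain factor Runx2. All but Ets1 carried H3K4me3 in both genotypes, against 59.8% of all genes in wild type and 59.6% in Asxl1-/-. In both genotypes 0 carried H3K27me3, against 27.4% and 24.4% of all genes. The 6 cluster promoters with AP-1 letters had no H3K4me3. Neither the expression of these factors nor their binding was measured here.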

How the data were processed

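The submitters' processing notes name BWA for alignment, SICER 1.1 for island calling and mm10 as the build. The BWA version, the settings of SICER, its control and its cutoff were not given in the sources used here. For each library the deposited lists hold the chromosome, start, end and a running number of each island, and no count, score or p-value, so depth is unknown and a lost island may differ little in signal. Starts were converted to 1-based positions. Island lists were intersected with RefSeq genes of GRCm38.p6 (least overlap 1 bp) in Python 3.11.15 with pandas 2.3.3, numpy 2.4.6 and scipy 1.17.1. The calls were tested on simulated islands. The gene table gives no strand, exon or UTR, so both gene ends were used, and the start alone where the RefSeq promoter table gave one. It gave 1 window per gene.

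With 1 library per group no test was run; shares have 95% exact Clopper-Pearson intervals. Alternatives were the window, island width, list length, overlap, start site, neighbouring genes, chromosomes, body share and cluster margin. All members may be named. Values by island were given for members that lost or gained H3K4me3 or H3K4me2, the 6 with the widest ASXL1 island at an end, the Timp genes, the gelatinases and the cluster, and other members were described by counts and ranges with examples chosen after their values were seen. Members, roles and gene lists were chosen with earlier results of these data known.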

Additional observations from a re-analysis of the deposited data

How the results depend on the processing

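Of 116 values recomputed for the counts of members and the cover of the cluster, 102 stayed within 1.5 times the reported value and 14 did not. The losses moved most, as they are few. Members that lost H3K27me3 were 5 when the island had to reach the gene end itself (0 bp), 5 with the lists of a mark cut to equal length by width, and 1 on the 10 autosomes where the ratio of H3K4me2 cover was near the median, which hold 19 members. Members that lost H3K4me2 were 0 on the 11 autosomes near the median for H3K4me3 (20 members), 1 at RefSeq start sites alone (31 members) and 1 without the 5 members between 7.5 and 9.5 Mb of chromosome 9, a setting added after seeing the data. H3K4me3 was gained at 1 member with lists of equal length and lost at 1, Adamts20, at start sites alone. Requiring 10% of the gene body left 21 members with H3K4me2 in wild type and 19 in Asxl1-/-, and 12 and 14 with H3K4me3. Adding 50 kb on each side of the cluster raised its wild-type cover to 116.585 kb for ASXL1 and 68.385 kb for H3K27me3. The loss of H3K4me2 was not called at Adamts16 within 2000 bp, nor at Mmp8 at its start site alone. Apart from the settings whose construction leaves fewer members or a longer stretch, the cause was not tested. No paired analysis was possible because each group has 1 library, and no library could be left out. Depth is unknown, so no limit of detection can be given.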

Other observations

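Timp1, the family member on the X chromosome (chrX:20870166-20874737), lies outside the autosomal rule. It had an ASXL1 island of 6.6 kb. Its H3K4me2 island was 9.0 kb in wild type against 7.6 kb in Asxl1-/-, its H3K4me3 island 7.8 kb and 5.2 kb, and it had no H3K27me3 island. H3K4me3 was thus narrower in Asxl1-/- at Timp1 and wider at Timp2 and Timp3, with 1 library per genotype and no test. No ratio of cover was worked out for the X chromosome, so Timp1 could not be set beside its chromosome as the others were. Of the H3K27me3 islands, 17507 of 17712 were autosomal in wild type, against 18447 of 20249 in Asxl1-/-.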
